A study of Mus musculus with 6 samples.

Results

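Polyamine synthesis and control genes were followed in RNA of the whole mouse pancreas: Odc1, Amd1, Srm and Sms, which make polyamines, Sat1 and Smox, which convert them back, and Oaz1, Oaz2 and Azin1, which control the first enzyme. The 9 genes were taken by their gene symbol from deposited tables that hold 23101 symbols. Of these, 8 were found by symbol. No row carried the symbol Sat1, and a row labelled with a calendar date lies wholly inside the RefSeq Sat1 gene on GRCm38 (X, 155213139 to 155216409); it is called Sat1 here. There were 3 Ela1-Myc and 3 WT libraries of polyadenylated RNA, all from mice 8 weeks old. Ela1-Myc mice carry Myc under the promoter of the elastase 1 gene, which is active in acinar cells, the enzyme-secreting cells of the pancreas. The labels give neither sex nor strain background, and do not say whether each library came from its own animal, so p-values measure only the spread between these samples. The comparison is of the transgenic with the unmodified gland at that age.

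Polyamines are small positively charged molecules that bind RNA and are needed for translation and growth, and the exocrine pancreas is known as a tissue rich in spermidine. Odc1 converts ornithine to putrescine, Amd1 supplies the aminopropyl donor from S-adenosylmethionine (AdoMet), and Srm and Sms add aminopropyl groups to give spermidine and then spermine. Sat1 acetylates spermidine and spermine, and Smox oxidises spermine back to spermidine. The antizymes Oaz1 and Oaz2 bind the ODC protein, send it to the proteasome and restrain polyamine uptake, while Azin1, a relative of ODC without its activity, binds antizyme in its place. Odc1 is a textbook target of MYC.

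Full-length antizyme is made only when ribosomes shift reading frame on its RNA at a UGA stop codon, a step that polyamines promote. Both antizyme RNAs carry this site, and they are the control genes called higher in the deposited values. The stretches around it are shown as 60 bases each of GENCODE transcripts (Oaz1, chromosome 10; Oaz2, chromosome 9), with the last codon of the first frame and the stop in capitals. The Oaz1 stretch was found in a transcript annotated as protein coding, and the Oaz2 stretch only in Oaz2 transcripts annotated as processed or intron-retaining. At 52 of the 60 positions both genes have the same base. RNA levels do not report how often ribosomes shift frame.
Oaz1: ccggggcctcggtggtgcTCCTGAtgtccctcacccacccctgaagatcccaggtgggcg
Oaz2: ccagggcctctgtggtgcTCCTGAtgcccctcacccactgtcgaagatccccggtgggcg

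Levels are the authors' adjusted FPKM (fragments per kilobase of transcript, set relative to all mapped fragments) divided by 100000, a constant that leaves every ratio unchanged. The libraries stood apart before any gene was considered. Summed values were 1088328, 629604 and 758707 in Ela1-Myc replicates 1 to 3 and 669394, 1948852 and 1180263 in WT replicates 1 to 3. Tests covered the 8803 genes whose 6 libraries averaged 1 or more. Of them, between 0 and 29 were listed at 0 in an Ela1-Myc library and between 592 and 1426 in a WT library, everyday genes such as Gapdh among them in WT replicates 1 and 3. RNA integrity numbers (RIN) were 8.8, 7.2 and 8.3 in Ela1-Myc and 7.3, 7.3 and 7.1 in WT; the protocol states a RIN over 8.5 for the samples used, and 5 of the 6 labelled values are not above it. Myc stood at 52.0, 34.4 and 34.2 in the Ela1-Myc libraries, against 4.10 in WT replicate 2, with WT replicates 1 and 3 listed at 0. Tests used limma on log2(value + 1), two-sided, adjusted by Benjamini-Hochberg over all 8803 genes, with a threshold of 0.05. The deposited scale put 70.2% of these genes higher in Ela1-Myc and 0.239% lower, with the median gene at a log2 change of 1.22. Of the 8803 genes, 5417 would miss the mean of 1 over the 6 libraries if their Ela1-Myc values counted as nothing. With the WT values so counted, 935 would miss it, and both counts bear on these shares. Median-of-ratios scaling, which divides each library by its typical ratio to the others, put 18.2% higher and 7.96% lower and moved the median gene to 0.24. Each member is therefore given on both scales.

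In the deposited values Sat1 and both antizyme genes were higher in Ela1-Myc, while the synthesis enzymes Odc1 and Srm overlapped between the groups. Of the 9 genes, 7 reached the mean of 1 and were tested. On the deposited scale 3 were called higher (Sat1, Oaz1 and Oaz2), none lower and 4 were not called, against the 70.2% of all genes called higher. The median log2 change of the 7 was 1.42, beside 1.22 for all tested genes. After scaling 1 was called higher (Sat1) and none lower, against 18.2% and 7.96% of all genes, and the median of the 7 was -0.05, beside 0.24. Counting only the 6 tested genes found by symbol, 2 were called higher on the deposited scale and 0 after scaling. All 7 would reach the minimum on their WT values alone, Sat1 through WT replicate 2, since it was listed at 0 in the 2 other WT libraries.

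**Figure D1:**
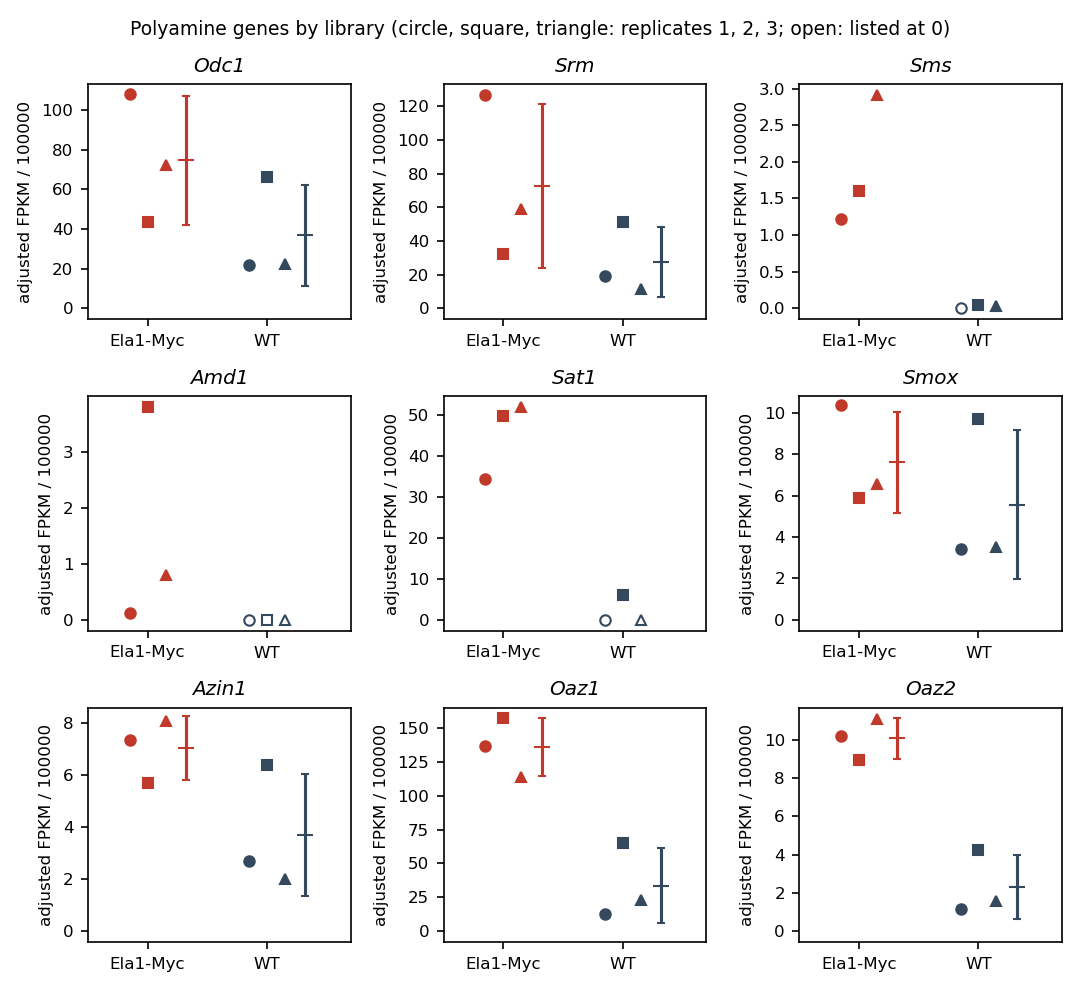
Level of each polyamine gene (vertical axis, adjusted FPKM divided by 100000, linear) in the 3 Ela1-Myc and 3 WT libraries. Each marker is 1 library and open markers are listed at 0; the bar beside them is the mean ± SD (n = 3), drawn only for genes above 0 in all 6 libraries. Sat1, Oaz1, Oaz2 and the untested Sms and Amd1 lie wholly above WT, as did 75.3% of all tested genes. For Odc1, Srm, Smox and Azin1 WT replicate 2 reaches into the Ela1-Myc range.

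Odc1 (chromosome 12, 17544873 to 17551502, GRCm38), the gene of ornithine decarboxylase, stood at 108, 43.4 and 72.3 in Ela1-Myc replicates 1 to 3, against 22.0, 66.2 and 22.2 in WT replicates 1 to 3. WT replicate 2 was above Ela1-Myc replicate 2, so the groups overlapped. Means were 74.6 ± 32.3 in Ela1-Myc and 36.8 ± 25.5 in WT (SD, n = 3 each). The log2 change was 1.10 ± 0.76 (SE; limma adjusted p = 0.196), close to that of the median gene, and -0.38 ± 0.402 after scaling (adjusted p = 0.498). Without WT replicate 2 Odc1 passed on the deposited scale, at a log2 change of 1.62 (limma adjusted p = 0.00986), and not after scaling, at -0.19 (adjusted p = 0.763). Without that library 7441 genes were called higher on the deposited scale.

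Srm (chromosome 4, 148591513 to 148594619), spermidine synthase, had its highest and lowest Ela1-Myc values in the same libraries as Odc1. It stood at 127, 32.4 and 59.0 in Ela1-Myc, against 19.4, 51.2 and 11.6 in WT. Again WT replicate 2 lay inside the Ela1-Myc range. The log2 change was 1.42 ± 0.788 (SE; limma adjusted p = 0.116). After scaling it was -0.05 ± 0.571, with an adjusted p of 0.952. Without WT replicate 2 it was 1.98 on the deposited scale (adjusted p = 0.0132), in the fit that called 7441 genes higher. After scaling it was 0.19, with an adjusted p of 0.836. For both genes the highest Ela1-Myc library, replicate 1, also had the highest RIN and summed value of its group, and the lowest, replicate 2, had the lowest RIN and sum. With RIN in the model the log2 changes of Odc1 and Srm were 0.37 and 0.34 (limma adjusted p = 0.827 and 0.837).

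Sms and Amd1 were scarce and fell under the filter, with means of 0.967 and 0.786 over the 6 libraries. Sms (chromosome X, 157443954 to 157492046), spermine synthase, was at 1.22, 1.60 and 2.91 in Ela1-Myc, against 0.0451 and 0.0273 in WT replicates 2 and 3, and was listed at 0 in WT replicate 1. Every Ela1-Myc library was above every WT library, as for 75.3% of the tested genes, which do not include Sms. Fitted with no filter on low values, Sms had a log2 change of 1.46 (limma adjusted p = 0.0119 over all 23101 symbols), a value that takes the listed 0 as measured. That fit called 8482 symbols higher and 25 lower. Amd1 (chromosome 10, 40287458 to 40302188), AdoMet decarboxylase, was at 0.112, 3.80 and 0.802 in Ela1-Myc and was listed at 0 in all 3 WT libraries. Its Ela1-Myc values spread widely, and without the filter it did not pass (limma adjusted p = 0.141). The mouse genome holds annotated pseudogene copies of Amd1, Sms, Oaz1 and Oaz2, and how the authors placed reads shared with such copies was not stated in any label or header, so these levels are uncertain. The depth of each library is unknown.

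Sat1, the acetyltransferase that opens polyamine breakdown and export, was at 34.4, 49.8 and 52.1 in Ela1-Myc, against 6.12 in WT replicate 2, and was listed at 0 in WT replicates 1 and 3. The groups did not overlap on the deposited scale, as for 75.3% of all tested genes, or after scaling, as for 30.4%. The fitted log2 change was 4.57 ± 0.678 (SE; limma adjusted p = 0.000104) and 3.80 ± 0.783 after scaling (adjusted p = 0.0169), and both take the listed zeros as measured values. A pseudocount of 1 before the division by 100000 also lost the deposited-scale call (adjusted p = 0.0618). Without WT replicate 3, or without Ela1-Myc replicate 2 or 3, the call after scaling was lost (adjusted p = 0.0547, 0.0716 and 0.0689). Against WT replicate 2 alone, the only WT library with a value above 0, each Ela1-Myc library was higher on the deposited scale and after scaling, where Sat1 stood at 20.6, 33.0 and 27.2 in Ela1-Myc, against 6.54 in WT replicate 2.

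Smox (chromosome 2, 131491862 to 131525183), spermine oxidase, was the tested gene with the smallest change on the deposited scale. It stood at 10.4, 5.87 and 6.56 in Ela1-Myc, against 3.44, 9.72 and 3.54 in WT. WT replicate 2 was above 2 of the 3 Ela1-Myc libraries. The log2 change was 0.48 ± 0.475 (SE; limma adjusted p = 0.356). After scaling the values were 6.23, 3.88 and 3.42 in Ela1-Myc and 8.48, 10.4 and 6.51 in WT, so that the groups no longer overlapped and Ela1-Myc was below, as for 17.1% of all tested genes. That difference, -0.79 ± 0.285, did not pass (limma adjusted p = 0.0811), and it did under quantile normalization (-1.08, adjusted p = 0.0243). The breakdown genes Sat1 and Smox thus had fitted changes of opposite sign after scaling, a contrast that was not itself tested.

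Oaz1 (chromosome 10, 80826656 to 80829290), antizyme 1, had the highest mean level of the 9 genes in Ela1-Myc; in WT the mean of Odc1 was higher. It was at 137, 157 and 114 in Ela1-Myc, against 12.4, 65.2 and 23.2 in WT. The groups did not overlap, as for 75.3% of all tested genes in that direction. After scaling they did overlap, at 82.1, 104 and 59.3 in Ela1-Myc and 30.6, 69.7 and 42.8 in WT. Means were 136 ± 21.7 in Ela1-Myc and 33.6 ± 27.9 in WT (SD, n = 3 each), a 4.05-fold higher mean. The log2 change was 2.29 ± 0.792 (SE; limma adjusted p = 0.0193). After scaling it was 0.81 ± 0.408, with an adjusted p of 0.179. The deposited-scale call was lost without WT replicate 1 (adjusted p = 0.0706) and without Ela1-Myc replicate 1, 2 or 3 (adjusted p = 0.0637, 0.0725 and 0.0636), as well as with RIN in the model (adjusted p = 0.136).

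Oaz2 (chromosome 9, 65676548 to 65690300), a second broadly expressed antizyme, was also higher on the deposited scale, at a lower level. It was at 10.2, 8.94 and 11.1 in Ela1-Myc, against 1.18, 4.25 and 1.57 in WT. Groups did not overlap on the deposited scale, as for 75.3% of all tested genes (0.534% lay wholly below WT), or after scaling, as for 30.4%. Means were 10.1 ± 1.08 in Ela1-Myc and 2.33 ± 1.67 in WT (SD, n = 3 each), a 4.32-fold higher mean. The log2 change was 1.84 ± 0.427 (SE; limma adjusted p = 0.00209). After scaling it was 0.66 ± 0.221, with an adjusted p of 0.0665. Leaving out any single library kept the deposited-scale call, with adjusted p between 0.000238 and 0.0193. After scaling Oaz2 passed only without WT replicate 2 (0.83, adjusted p = 0.0309).

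Azin1 (chromosome 15, 38487430 to 38519266), the antizyme inhibitor, was at 7.35, 5.71 and 8.08 in Ela1-Myc, against 2.72, 6.38 and 2.00 in WT. WT replicate 2 was above Ela1-Myc replicate 2. The log2 change was 0.88 ± 0.432 (SE; limma adjusted p = 0.0809). After scaling it was -0.36 ± 0.263, with an adjusted p of 0.337. Without WT replicate 2 Azin1 passed on the deposited scale (1.26, adjusted p = 0.00354), in the fit that called 7441 genes higher. Smox and Azin1, like Odc1, changed sign with the scale, and none of the 3 passed on either scale with all libraries weighted equally. With limma array weights, which weight each library by its estimated spread, all 3 and Srm passed on the deposited scale (adjusted p = 0.00197 for Odc1, 0.00772 for Smox, 0.000123 for Azin1 and 0.000484 for Srm). The weighted fit called 7572 of the 8803 tested genes higher.

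**Figure D2:**
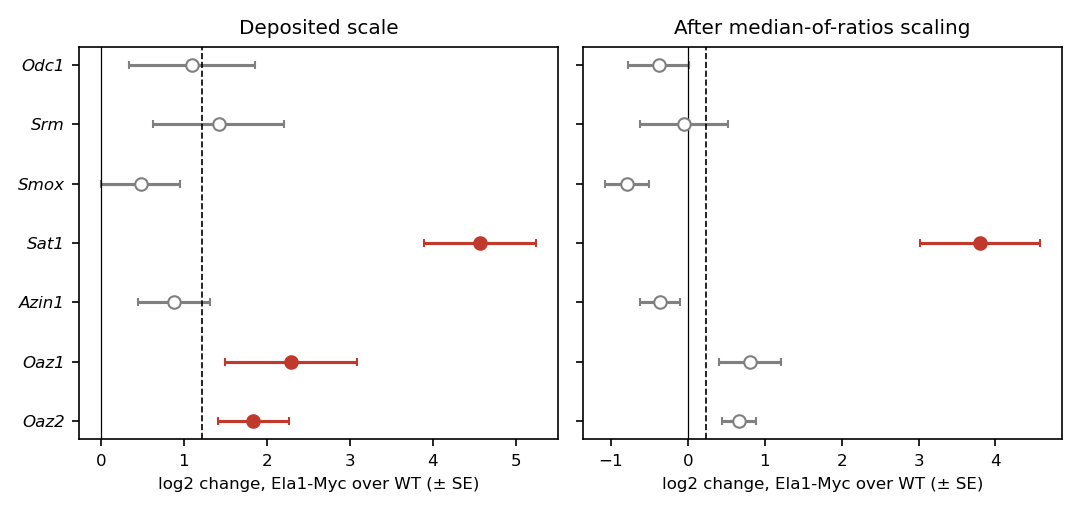
Fitted log2 change, Ela1-Myc over WT, with its standard error, for the 7 tested genes on the deposited scale (left) and after median-of-ratios scaling (right). Filled red points passed an adjusted p of 0.05, the solid line marks 0 and the dashed line the median of all 8803 tested genes (1.22 left, 0.24 right). Sat1, Oaz1 and Oaz2 lie right of the dashed line in both panels and Odc1, Smox and Azin1 lie left of it.

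Ratios of members inside one library do not depend on a factor applied to that whole library. They set the control genes against the enzyme they control. How the authors adjusted the values is unknown, and an adjustment that differed between genes would remain in the ratios. Odc1 RNA was 0.787, 0.276 and 0.636 times that of Oaz1 in Ela1-Myc, against 1.77, 1.02 and 0.954 times in WT. Every Ela1-Myc library was below every WT library, by 1.21 log2 units between group means (-0.95 ± 0.799 in Ela1-Myc and 0.26 ± 0.491 in WT, SD, n = 3 each; two-sided, exact permutation p = 0.1, the lowest value possible with 3 against 3). Azin1 against Oaz1 was lower as well. It was 0.0536, 0.0363 and 0.0710 in Ela1-Myc and 0.219, 0.0979 and 0.0859 in WT, with no overlap (log2 difference -1.24, exact permutation p = 0.1). Both antizyme comparisons share Oaz1 and are not independent. The log2 change of Oaz1 was above that of the median gene on both scales (2.29 beside 1.22, and 0.81 beside 0.24 after scaling). A gene that changed like the median gene would thus also be lower relative to Oaz1. How many of all tested genes separate the groups when set against Oaz1 was not counted.

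Within each of the other pairs with 3 ratios a group, the ratio overlapped between the groups. Odc1 was 14.7, 7.60 and 8.96 times Azin1 in Ela1-Myc, against 8.10, 10.4 and 11.1 times in WT (log2 difference 0.03, exact permutation p = 1.00). Oaz2 was 0.0742, 0.0569 and 0.0976 times Oaz1 in Ela1-Myc, against 0.0951, 0.0651 and 0.0674 times in WT (log2 difference -0.01, exact permutation p = 1.00). The Oaz2 to Oaz1 ratio thus ran from 0.0569 to 0.0976 over the 6 libraries. Srm was 104, 20.2 and 20.3 times Sms in Ela1-Myc, against 1137 and 425 times in WT replicates 2 and 3, while WT replicate 1 gave no ratio (log2 difference -4.32, exact permutation p = 0.1, the lowest value possible with 3 against 2). The WT values of Sms behind these ratios are close to 0, and with 1 added to every value the log2 difference was -0.05 (exact permutation p = 1.00). Of 8 ratios computed, 5 could be tested, and Benjamini-Hochberg adjustment over the 5 gave 0.167 for each of the 3 that did not overlap.

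Sat1 could be set against the synthesis enzymes in WT replicate 2 only, so these ratios were not tested. Sat1 RNA was 0.318, 1.15 and 0.721 times Odc1 in Ela1-Myc and 0.0924 times in WT replicate 2. Against Srm it was 0.272, 1.54 and 0.884 in Ela1-Myc and 0.119 in WT replicate 2. The Amd1 to Odc1 ratio existed in Ela1-Myc alone, at 0.00104, 0.0876 and 0.0111.

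**Figure D3:**
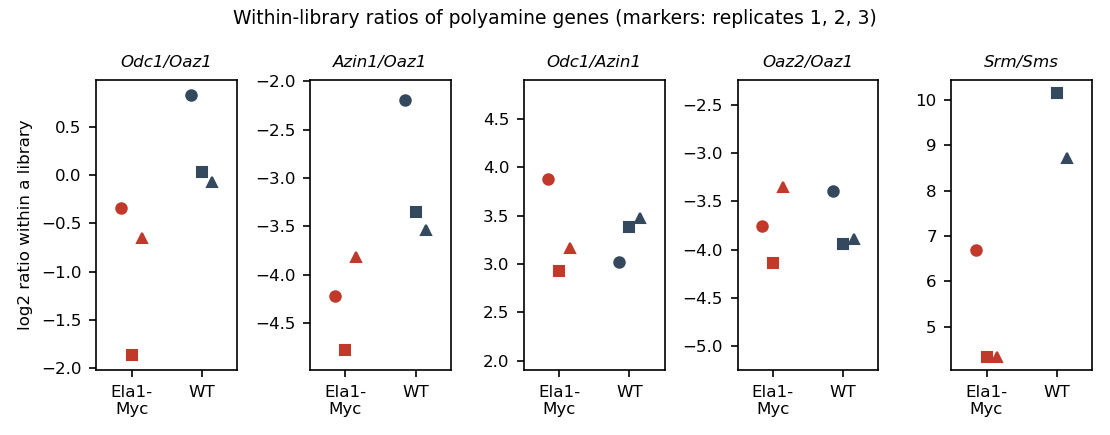
Log2 ratio of 2 polyamine genes within the same library (vertical axes, each with its own range), for Ela1-Myc and WT; each marker is 1 library and WT replicate 1 has no Srm/Sms ratio. Odc1/Oaz1, Azin1/Oaz1 and Srm/Sms separate the groups, with Ela1-Myc lower (Srm/Sms no longer with 1 added to every value, at a difference of -0.05), and Odc1/Azin1 and Oaz2/Oaz1 overlap. The share of other gene pairs that separate the groups was not counted.

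Rank among the 8803 tested genes, counted from the highest level in a library, likewise does not depend on a factor for a whole library. It does move with the genes listed at 0 in WT. Odc1 ranked 323, 660 and 420 in Ela1-Myc and 314, 329 and 373 in WT. Oaz1 ranked 277, 247 and 292 in Ela1-Myc and 504, 331 and 362 in WT, nearer the top in every Ela1-Myc library than in any WT library. Oaz2 ranked 2386, 2655 and 2347 in Ela1-Myc and 2765 to 3595 in WT, again without overlap. Sat1 ranked 836, 584 and 554 in Ela1-Myc and 7743, 2143 and 7378 in WT, where replicates 1 and 3 were listed at 0. Smox and Azin1 went the other way. Smox ranked 2336 to 3805 in Ela1-Myc and 1474 to 1591 in WT, and Azin1 3078 to 3819 in Ela1-Myc and 1906 to 2573 in WT. For Srm the ranks overlapped, at 294 to 833 in Ela1-Myc and 345 to 601 in WT. How many of all tested genes separate the groups by rank was not counted. By mean level the order in Ela1-Myc was Oaz1, Odc1, Srm, Sat1, Oaz2, Smox, Azin1, Sms and Amd1. In WT, Odc1 came before Oaz1, then Srm, Smox, Azin1 and Oaz2, and the other 3 genes were listed at 0 in at least 1 library. In both groups the ranges of Odc1 and Srm overlapped, and so did those of Smox and Oaz2 and those of Smox and Azin1.

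The genes most like Odc1 across the 6 libraries, among 6996 tested genes above 0 in all of them, were Nomo1, Eif4g1 and Sidt2 (Pearson r of log2 values 0.999, 0.996 and 0.996). Nomo1 was at 24.4, 11.1 and 16.9 in Ela1-Myc, against 6.46, 16.8 and 6.28 in WT, the same order of libraries as Odc1 apart from WT replicates 1 and 3. Those most like Srm were Tysnd1, Mlec and Nit1 (r = 0.991, 0.988 and 0.988). These r values describe 6 points that share library depth and group.

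Neighbouring genes of the pathway were read from lists of 59 genes around polyamine metabolism, of which 57 were in the files and 39 were tested. On the deposited scale 22 were higher, none lower and 17 not called, against 70.2% and 0.239% of all tested genes, with a median log2 change of 1.21, beside 1.22 for all tested genes. After scaling 4 were higher, 6 lower and 29 not called, against 18.2% and 7.96% of all tested genes, with a median of 0.07, beside 0.24. Of the 39, 11 would miss the mean of 1 over the 6 libraries if their Ela1-Myc values counted as nothing. Got1, Atp13a3, Enoph1, Mtap and Psmd14 are among them. Some, such as Got1 with a WT mean of 1.74, would still be tested at equal levels in both groups. All 4 called higher after scaling are among these 11, and none of the 6 called lower is.

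Ornithine and arginine supply held 7 tested genes, of which 3 were higher on the deposited scale and none was lower, and none higher and 1 lower after scaling. Of all tested genes 70.2% were higher and 0.239% lower on the deposited scale, and 18.2% and 7.96% after scaling. Oat, the mitochondrial aminotransferase that links ornithine to glutamate and proline, was at 18.6, 22.9 and 19.6 in Ela1-Myc, against 3.67, 8.96 and 1.12 in WT (log2 change 2.21, limma adjusted p = 0.00418; 0.92 and 0.212 after scaling). Gatm, which makes the creatine precursor from arginine and releases ornithine, was at 75.3, 41.8 and 64.3 in Ela1-Myc, against 67.7, 150 and 88.8 in WT. It did not pass on the deposited scale (log2 change -0.71, limma adjusted p = 0.394) and was lower after scaling (-2.20, adjusted p = 0.00461). The argininosuccinate lyase gene Asl had a log2 change of 1.80 (limma adjusted p = 0.0125; 0.56 and 0.361 after scaling). The arginine transporter Slc7a1 had a log2 change of 0.78 (limma adjusted p = 0.112), and of -0.34 after scaling (adjusted p = 0.464). Arginase 2 (Arg2), which makes ornithine in mitochondria, was below the filter, at 0.318, 0.451 and 0.522 in Ela1-Myc and 0.514, 0.925 and 0.787 in WT. Azin2, the second antizyme inhibitor, was also below it, at 0.201 to 0.687 in Ela1-Myc and 0.119 to 0.165 in WT.

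AdoMet supply and methionine salvage, which feed and recycle the aminopropyl donor, held 12 tested genes. On the deposited scale 7 were higher and none lower, against 70.2% and 0.239% of all tested genes. After scaling 2 were higher (Mtap and Enoph1, both of the salvage pathway) and 4 lower (Mat1a, Gnmt, Apip and Adi1), against 18.2% and 7.96%. Mat2a, the AdoMet synthetase of most tissues outside liver, was at 22.6, 21.6 and 25.1 in Ela1-Myc, against 3.66, 8.42 and 0.420 in WT (log2 change 2.60, limma adjusted p = 0.00251; 1.38 and 0.165 after scaling). Mat1a, the liver-type synthetase, was at 5.71, 4.15 and 4.75 in Ela1-Myc, against 5.65, 16.6 and 4.54 in WT (log2 change -0.57, limma adjusted p = 0.297; -1.84 and 0.0085 after scaling). The 2 synthetase genes therefore had fitted changes of opposite sign on both scales. Enoph1 and Mtap reached the filter only with their Ela1-Myc values. Enoph1 was at 2.84, 3.81 and 3.60 in Ela1-Myc, against 0.342, 0.710 and 0.177 in WT (log2 change 1.66, limma adjusted p = 0.000202; 0.89 and 0.0229 after scaling). Got1, an aminotransferase, had a log2 change of 2.12 (limma adjusted p = 0.00162; 1.13 and 0.126 after scaling). Ahcy, which clears the by-product of AdoMet-dependent methylation, was at 72.2, 59.4 and 64.2 in Ela1-Myc, against 11.0, 72.5 and 51.8 in WT (log2 change 0.88, limma adjusted p = 0.326). Its log2 change after scaling was -0.60 (adjusted p = 0.393). Mtap, which cleaves the methylthioadenosine left by Srm and Sms, was at 6.15, 7.28 and 8.17 in Ela1-Myc, against 1.27 in WT replicate 2 and listed zeros in the other WT libraries.

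Oxidation and acetylation genes other than the members numbered 5 tested, of which 2 were higher on the deposited scale and none was called after scaling. The shares of all tested genes called higher were 70.2% and 18.2%. Paox, which oxidises the acetylated polyamines that Sat1 makes, was at 10.7, 8.13 and 9.44 in Ela1-Myc, against 1.18, 3.88 and 1.89 in WT. The groups did not overlap, as for 75.3% of all tested genes on the deposited scale. The log2 change of Paox was 1.72 (limma adjusted p = 0.00254), or 0.54 after scaling (adjusted p = 0.0993). Aldh9a1, an aldehyde dehydrogenase that oxidises aminobutyraldehyde, had a log2 change of 2.25 (limma adjusted p = 0.00111; 1.12 and 0.0663 after scaling). Hdac10, a deacetylase of acetylated spermidine, had 0.79 (limma adjusted p = 0.0583; -0.36 and 0.226 after scaling).

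Of 8 tested transport genes 3 were higher on the deposited scale and none was lower, and 1 was higher and 1 lower after scaling. Among all tested genes the shares were 70.2% and 0.239%, and 18.2% and 7.96% after scaling. The transport gene called lower was Atp13a2, the lysosomal polyamine exporter. The polyamine pump Atp13a3 had a log2 change of 0.82 (limma adjusted p = 0.0472; -0.25 and 0.416 after scaling). Slc3a2, a transporter subunit, had 0.34 (limma adjusted p = 0.672; -1.14 and 0.0681 after scaling), and Slc12a8 had 0.46 (adjusted p = 0.395; -0.88 and 0.0544). The caveolin gene Cav1 was at 9.07, 26.2 and 19.2 in Ela1-Myc, against 6.58, 3.85 and 1.32 in WT (log2 change 2.01, limma adjusted p = 0.0062; 0.70 and 0.448 after scaling).

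Spermidine is used to make hypusine, a modified lysine that only the translation factor eIF5A carries. The 3 tested genes of that step were all higher on the deposited scale, where 70.2% of all tested genes were, and none was called after scaling. Eif5a was at 305, 195 and 276 in Ela1-Myc, against 110 and 0.328 in WT replicates 2 and 3, and was listed at 0 in WT replicate 1. Dhps and Dohh, the enzymes that build hypusine, had log2 changes of 1.21 and 1.86 (limma adjusted p = 0.00985 and 0.0112; 0.07 and 0.57 after scaling, adjusted p = 0.823 and 0.315). Dohh was at 21.1, 17.9 and 14.3 in Ela1-Myc, against 1.65, 11.2 and 3.17 in WT.

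Proteasome subunits, the machine to which antizyme delivers ODC, supplied all 4 tested genes of the last list. All 4 were higher on the deposited scale, and Psmd14 alone was after scaling, against 70.2% and 18.2% of all tested genes. Psmd14, a deubiquitinase of the proteasome lid, would miss the filter with its Ela1-Myc values counted as nothing, although its WT mean was 1.13. It was at 10.7, 8.40 and 15.6 in Ela1-Myc, against 0.127, 3.24 and 0.0226 in WT. The log2 change was 2.85 (limma adjusted p = 0.000321), or 2.06 after scaling (adjusted p = 0.0336). The ATPase genes Psmc4 and Psmc1 had log2 changes of 2.67 and 2.49 (limma adjusted p = 0.00439 and 0.0016; 1.41 and 1.24 after scaling, adjusted p = 0.17 and 0.057). Oaz3, an antizyme of the testis, was at most 0.0698 in Ela1-Myc and 0.103 in WT.

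**Figure D4:**
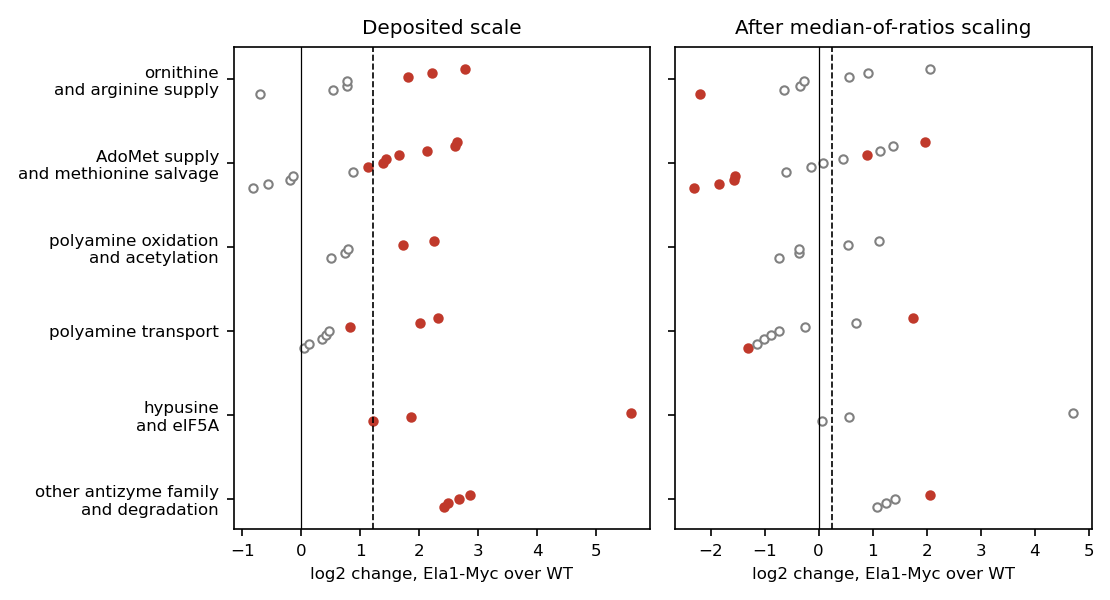
Fitted log2 change, Ela1-Myc over WT, of the 39 tested genes around polyamine metabolism, by list, on the deposited scale (left) and after median-of-ratios scaling (right); each point is 1 gene, the vertical offset within a list only separates points, and the dashed line is the median of all tested genes. Filled red points passed an adjusted p of 0.05. All 22 called genes on the left are higher in Ela1-Myc, while on the right 4 are higher and 6 lower.

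Upstream sequences were available in the RefSeq table (GRCm38.p6) for 7 of the 9 genes, and were searched over 250 bases before each start for CACGTG, the site that MYC and MAX bind. The motif reads the same on both strands and occurs in 6.02% of all such windows. It was found in 1 window, that of the more upstream of 2 Sms starts, where it begins 196 bases before the start, and not in the windows of Odc1, Amd1, Sat1, Smox, Oaz1 or Oaz2. That start lies upstream of the Sms row in the deposited files. The Odc1 window, shown because Odc1 is the textbook MYC target of the group, holds 4 matches to the GC-box GGGCGG or its reverse CCGCCC, which 32.7% of windows contain. Capitals mark CACGTG in Sms (chrX:157492288-157492537, minus strand) and the GC-boxes in Odc1 (chr12:17544623-17544872, plus strand). A match is a description of letters, not of binding, and sites outside the window were not searched.
Sms: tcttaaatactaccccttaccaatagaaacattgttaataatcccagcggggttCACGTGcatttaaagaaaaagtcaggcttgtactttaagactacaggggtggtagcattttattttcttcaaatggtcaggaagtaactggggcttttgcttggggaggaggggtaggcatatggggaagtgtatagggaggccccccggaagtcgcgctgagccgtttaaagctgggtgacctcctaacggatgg
Odc1: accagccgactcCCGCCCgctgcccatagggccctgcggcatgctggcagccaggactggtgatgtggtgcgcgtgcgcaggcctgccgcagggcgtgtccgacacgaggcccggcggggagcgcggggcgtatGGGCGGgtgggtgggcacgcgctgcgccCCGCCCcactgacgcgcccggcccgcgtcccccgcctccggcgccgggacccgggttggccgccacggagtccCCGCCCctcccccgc

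The tissue label held for acinar cells, whose 6 markers were above 0 in every library. Their summed level was 107504, 56469 and 96254 in Ela1-Myc and 119253, 387450 and 221513 in WT. On the deposited scale 3 of the 6 were lower, and after scaling 5 were. Digestive enzyme genes made up 73.8%, 61.7% and 69.9% of summed values in Ela1-Myc and 90.6%, 90.5% and 92.1% in WT. Markers of other cells moved with the groups too, where 70.2% of all tested genes were higher on the deposited scale and 18.2% after scaling. All 4 macrophage markers were higher on the deposited scale, 3 of them also after scaling. Their sums were 45.1, 92.7 and 90.9 in Ela1-Myc and 2.88, 3.13 and 0.129 in WT. In the WT libraries 2, 2 and 3 of the 4 were listed at 0. At these WT sums, most of the 4 could not average 1 over the 6 libraries if Ela1-Myc values counted as nothing. Most were thus tested only because of the group in which they are high, which bears on these calls. The same check was not made for the markers of other cells. Of 3 tested stellate cell markers 2 were higher on both scales (sums of 235, 326 and 354 in Ela1-Myc and 45.3, 82.8 and 43.3 in WT). On the deposited scale all 3 tested lymphocyte markers and 2 of 3 duct markers were higher, and none of them was called after scaling. All 4 islet markers were higher on the deposited scale and 1 after scaling, and all 4 were listed at 0 in WT replicate 1. Their sums were 2292, 2668 and 3129 in Ela1-Myc and 0, 2263 and 332 in WT. Sat1, Oaz1 and Oaz2 are expressed in many cell types, and the part of these cells in their levels was not tested. In bulk tissue, fewer cells of a type and less RNA per cell cannot be told apart.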

How the data were processed

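RNA-seq libraries of mouse pancreas (3 Ela1-Myc, 3 WT) were made from polyadenylated RNA with ERCC spike-in RNA added and by a stranded method, per the labels' protocols. The authors deposited 1 adjusted FPKM value per gene and library, per the file headers; no header or label says how. The submitters' processing notes list Cufflinks 2.0.2, affy, Bowtie and TopHat2 2.0.4, and the build GRCm38 (mm10). Values were divided by 100000, and repeated symbols were represented by their highest-mean row. Read counts and spike-in values were not used here, so depth is unknown and no counting interval is given.

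Genes with a mean of at least 1 were fitted with limma 3.58.1 in R 4.3.3 (log2(value + 1), variance trend, group only). The fit was tested on data simulated from genes above 0 in all 6 libraries. Those data held neither listed zeros nor shifts of a whole library, so the test does not cover these features. Fold changes on that scale understate the change of low genes. Median-of-ratios factors came from tested genes above 0 in all 6 libraries and were 1.67, 1.51 and 1.92 in Ela1-Myc and 0.406, 0.935 and 0.543 in WT. Ratios within libraries were compared by exact permutation in Python 3.11.15. The 9 genes and all lists were chosen with earlier results of these data known, so no test was made over a list. Named were all 9 genes, 12 fixed pathway genes, the 3 genes per list with the largest change among those above 0 in all libraries, and the 3 most like Odc1 and Srm; Mtap, Mat1a, Gnmt, Apip, Adi1 and Atp13a2 were added after their values were seen. The values of 1 pathway gene are not reported here. Sat1 and Sat2 rows, labelled with dates, were matched by position. Alternatives covered scale, pseudocount, filter, variance model, RIN, repeated symbols and each left-out library.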

Additional observations from a re-analysis of the deposited data

How the results depend on the processing

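On the deposited scale 3 members were called higher and 0 lower, as were 6182 and 21 of all genes and 22 and 0 pathway genes. Median-of-ratios scaling gave 1 member higher, 1600 and 701 of all genes, and 4 and 6 pathway genes; quantile normalization gave 1 member higher and 1 lower, 995 and 1737 of all genes, and 4 and 11 pathway genes. Leaving out digestive enzyme genes with equal totals kept the member count at 3 (Sat1 4.01, Oaz1 1.04 and Oaz2 0.86, adjusted p = 0.00918, 0.0413 and 0.0384) and gave 1900 and 398 of all genes and 8 and 6 pathway genes. Under these 3 scales the log2 changes were -0.38, -0.49 and -0.15 for Odc1, -0.79, -1.08 and -0.60 for Smox, and -0.36, -0.63 and -0.16 for Azin1. Srm was at -0.05, -0.20 and 0.18. Scaling of only genes above 0 in all 6 libraries, an alternative chosen after seeing the data, left Sat1 untested and gave 0 members, 734 and 781 of all genes and 4 and 8 pathway genes, with -0.38, -0.05, -0.79 and -0.36 for Odc1, Srm, Smox and Azin1. A pseudocount of 1 on the deposited values gave 3369 and 6 of all genes and 11 pathway genes higher. Without a variance trend 41 genes were lower. Array weights called 7 members higher, and 7572 of all genes higher and 132 lower. RIN as covariate gave 3997 genes and 14 pathway genes higher.

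Leaving out 1 library gave 2 to 7 members higher (7 without WT replicate 2), 3937 to 7441 genes higher and 4 to 67 lower, and 17 to 26 pathway genes higher and 0 lower. Log2 changes ran from 0.79 to 1.62 for Odc1, 0.91 to 1.98 for Srm, 0.26 to 0.90 for Smox and 0.61 to 1.26 for Azin1. With scaling as well, these were 0 to 2 members, 445 to 1904 and 173 to 670 genes, and 1 to 10 and 4 to 7 pathway genes; log2 changes then ran from -0.68 to -0.10 for Odc1, -0.56 to 0.35 for Srm, -1.05 to -0.61 for Smox and -0.70 to -0.23 for Azin1. The Odc1/Azin1 and Oaz2/Oaz1 differences ran from -0.25 to 0.23 and from -0.20 to 0.19 with 1 library left out, and Odc1/Oaz1 from -1.52 to -0.76. The cause of these shifts was not tested. No paired analysis was possible because the labels give no replicate numbers; those used here only name the libraries. With depth unknown, the counting error of low values such as Sms and Amd1 could not be estimated.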
